A study of Homo sapiens with 31 samples.

Results

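Circular RNAs of undifferentiated human ES cells were compared with those of the same cells after 45 days of differentiation towards retina. The comparison used the 3 libraries of day 0 and the 3 libraries of untreated day 45, chosen by their labels alone, which were 6 of the 15 circRNA libraries and of the 31 samples of the series. Reads of these 6 libraries fell on 34714 of the 55371 listed circRNAs and on 6818 of the 8095 host genes, the genes whose exons the circRNAs were made of. The question was which host genes and circRNAs rose more, and which less, than circRNAs did in general.

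A circRNA forms when the end of an exon is joined backwards to the start of the same or an upstream exon, which leaves a back-splice junction that linear mRNA does not have. Most are made from internal exons of protein-coding genes, and because they have no free ends they are degraded slowly. Neural tissue is known for high circRNA levels, and a few circRNAs bind microRNAs or proteins.

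All 6 libraries came from H9, an established human ES cell line, so they stand for 1 line grown in triplicate. Day 0 cells were undifferentiated and had no treatment. The day 45 cultures were the ones grown without IGF-1, the growth factor given to other cultures of the study. Cells were harvested without picking embryoid bodies, so a day 45 library held whatever mixture of cells the culture held. A p-value below measures only the spread between cultures of this line. In the main tests of single genes and circRNAs, that spread was estimated from all circRNA libraries of the series. These included IGF-1 treated cultures and cultures of a later day, which were not compared here. In such bulk RNA, fewer cells of a type and less RNA per cell cannot be told apart. RNA integrity numbers in the labels were 9.8 to 10 at day 0 and 7.6 to 9.1 at day 45, and their part in any difference between the days cannot be told apart from that of time.

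Between 110773232 and 146551576 reads were sequenced per library, of which 14992 to 17929 at day 0 and 89266 to 108946 at day 45 were back-splice reads. Base quality went with the replicate number and not with the day, so ratios within replicate numbers are given beside the general rise. Only the circRNAs of cell type markers could be used to check the labels. POU5F1, NANOG and SOX2 of the pluripotency list had no back-splice read, and neither had PAX6, RAX, SIX3, OTX2 or CRX of the eye list. The summed share of the pluripotency and germline list was 28.0, 26.5 and 38.5 reads per 10000 back-splice reads at day 0 and 3.03, 3.23 and 2.13 at day 45. UGP2, a metabolic enzyme, held 24, 22 and 46 of the 42, 40 and 69 reads at day 0, and without it the sums were 12.01, 11.9 and 12.8 against 0.826, 1.89 and 1.12. The summed share of the eye list was 2.67, 1.32 and 3.35 at day 0 and 7.62, 12.03 and 12.55 at day 45. It rested on 4, 2 and 6 reads at day 0 and 83, 108 and 112 at day 45. TENM3, an adhesion protein, held 2, 2 and 4 of these reads at day 0 and 41, 52 and 48 at day 45. The summed share of the neuronal list was 52.7, 48.3 and 40.7 against 117, 262 and 372. RMST alone held 806, 1970 and 2791 of the 1272, 2348 and 3322 neuronal reads at day 45, and without it the sums were 31.4, 23.2 and 24.0 against 42.8, 42.1 and 59.5. For each of these lists the days did not overlap, nor did they for the pluripotency list without UGP2 or the neuronal list without RMST. Of other lineages, endothelium and blood had reads on 4 of 19 genes and endoderm and liver on 1 of 15, with at most 3 reads on any of them. Mesenchyme and neural crest had 2, 8 and 5 reads at day 0 and 47, 24 and 77 at day 45, of which VCAN, a matrix proteoglycan, held 35, 11 and 67, and mesoderm, muscle and heart had 1, 7 and 14 against 5, 28 and 9.

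The back-splice junctions of the circRNAs that the comparison turned on are printed here, with positions on GRCh37/hg19. Each line gives 30 bases in transcript sense, 15 from the end of the last exon and 15 from the start of the first, and the 8 bases on either side of the junction are in capitals. Exon numbers are those of the transcript that the deposited table names, and a line of the set below without them had no such match. A first set rose more than circRNAs in general.
RMST exons 6 to 12, chr12:97886239-97954825, + strand: gaatggcTTCATGAGATTCTCAGgatgatg
SUCO exons 3 to 9, chr1:172520652-172539870, + strand: cagcactAAAATTTGGCTTCCCAgctggcg
NRIP1 exons 2 to 3, both untranslated, chr21:16386665-16415895, - strand: gcttggaGACAGACGGAAGTGTTtggattg
ATRNL1 exons 2 to 8, chr10:116879949-116931050, + strand: aggaataCCATATCTGTTAACAGaaccttc
FBXL17, chr5:107684100-107703654, - strand: caggaaaACAAATTAATATTTTCcaatttg
VPS13C, chr15:62299507-62306191, - strand: cagaaagAAATTCAGACTGCAAAtgaacac
DNAI4 exons 2 to 4, chr1:67356837-67371058, - strand: tgactagTTTCACAGGAACAATGccacaca
RERE exons 4 to 6, chr1:8601273-8617582, - strand: taaccctGAGACAAGAGTAAGAGggaccat

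A second set lost share of the back-splice reads. The first pair, from FIRRE, share an acceptor and differ in the exon that ends the circle.
FIRRE exons 5 to 10, chrX:130883334-130928494, - strand: agatactTTATGAGGAGACTAAGgtgtcag
FIRRE exons 5 to 9, chrX:130889626-130928494, - strand: agatgctTGATGAGGAGACTAAGgtgtcag
KCNN2 exon 8, chr5:113740135-113740553, + strand: ccgagctTGTGAAAGTTGTTCATggtggac
SPECC1 exon 2, chr17:20107646-20109225, + strand: agtctgcTGGCCAAGGGGCCTTTacaacaa
PRKD3 exon 2, chr2:37543380-37544322, - strand: atagtttATCAAAAGGCTAACTAtatgtca
FAT1 exon 2, chr4:187627717-187630999, - strand: taggtgaAGAGACAGATTCCCGAcagttaa

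A further pair are abundant circRNAs whose share was not past the threshold, and are shown for reference.
SMARCA5 exons 15 to 16, chr4:144464662-144465125, + strand: agagaaaAACAAAAGGGAGGCTTgtggatc
HIPK3 exon 2, chr11:33307959-33309057, + strand: atctcggTACTACAGGTATGGCCtcacaag
In the genome, 34447 of the 34702 junctions that could be looked up (99.3%) had AG just before the first exon and GT just after the last. The reads had been screened against annotated transcripts, so these bases are no separate check of the junctions.

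Back-splice reads came to 120, 106 and 128 per 1000000 sequenced reads (RPM) at day 0 and to 984, 649 and 609 RPM at day 45. Every day 45 library lay above every day 0 library. The means were 118 ± 10.96 and 747 ± 206 RPM (SD, n = 3), a ratio of 6.33 or 2.66 on the log2 scale (two-sided exact permutation test, p = 0.1, the smallest that 3 against 3 libraries can give). Within replicate numbers 1, 2 and 3 the ratio was 8.19, 6.11 and 4.76. This general rise was taken as the reference for single genes and circRNAs.

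Each host gene was therefore tested on 2 scales. On sequenced reads, a gene with the general rise changes by about 2.66 on the log2 scale. On the share of back-splice reads, such a gene does not change, and a share is given per 10000 back-splice reads. Both tests were edgeR's quasi-likelihood test with Benjamini-Hochberg adjustment over all features tested, called at an adjusted p under 0.05, and ± after a log2 change is its standard error. Folds are ratios of the shares or RPM pooled over the 3 libraries of a day.

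Of 4933 host genes tested, 3129 (63.4%) were higher at day 45 on sequenced reads and 18 (0.365%) were lower. On share, 303 (6.14%) were higher and 255 (5.17%) were lower, and 4375 were not called. With TMM scaling the share calls were 565 higher and 154 lower, so that the higher ones made up 78.6% of the calls against 54.3% here, and the median log2 change of all genes went from 0.40 to 0.86. Counts of higher against lower genes on share are thus relative to the scaling. Leaving out day 0 replicate 1, 2 or 3 left 190, 188 and 200 genes higher, and leaving out a day 45 library left 290 to 296.

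All 303 genes with a higher share were also higher on sequenced reads, and 96 of them had no read at day 0. The median pooled fold of the other 207 was 25.1, and that of all 303 with these 96 at their bound was 22.2. The 255 genes with a lower share comprised 72 that were higher on sequenced reads, 165 that passed in neither direction and 18 that were lower. The median fold on sequenced reads was 1.45 for the 252 with reads on both days, and 1.44 with the other 3 at their bound. The 303 genes held 6.83% of all back-splice reads at day 0 and 25.3% at day 45, and the 255 genes held 29.4% and 8.02%. Genes not called held 61.6% and 65.2%, so most back-splice reads at either day came from genes whose share was not past the threshold.

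**Figure D1:**
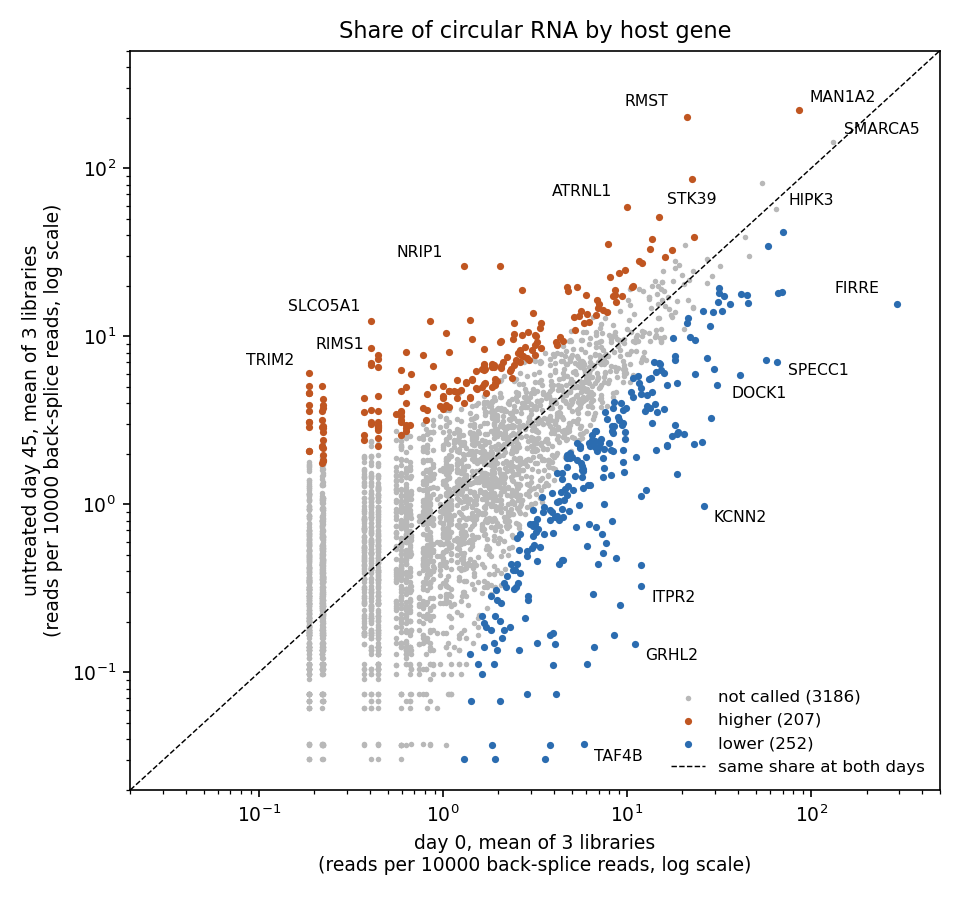
Mean share of each tested host gene with reads on both days, at day 0 (x axis) and at day 45 (y axis), in reads per 10000 back-splice reads. Axes are logarithmic, and colours show whether the share was higher (207 of 303 genes drawn), lower (252 of 255 drawn) or not called. Genes with no read on a day are not drawn. Of the 4375 not called, 1175 had none at day 0 and 34 none at day 45. RMST, from 21.1 to 202, lies above the diagonal and FIRRE, from 293 to 15.6, below it.

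RMST, a long non-coding RNA gene known for a role in neurogenesis, had the smallest adjusted p among the genes that gained share. Its circRNAs had 32, 38 and 30 reads at day 0 and 806, 1970 and 2791 at day 45, or shares of 21.3, 25.1 and 16.7 against 74.0, 219 and 313. Every day 45 library was above every day 0 library, and replicate 1 was the lowest at day 45. The share was 9.29 times and the RPM 57.3 times that of day 0 (share log2 change 3.27 ± 0.30, edgeR adjusted p = 2.09e-12). The circRNA of exons 6 to 12, the first junction printed above, held 96.0% of the RMST reads at day 0 and 97.5% at day 45.

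Several of the genes with the smallest adjusted p encode transcriptional regulators. NRIP1, a corepressor of nuclear receptors, had 3, 2 and 1 reads at day 0 and 131, 326 and 272 at day 45 (share log2 change 4.37 ± 0.49, edgeR adjusted p = 3.39e-10). All its reads at day 0 and 95.2% at day 45 came from the circle of untranslated exons 2 and 3. RERE, a corepressor of the atrophin family, had 34, 26 and 49 reads against 1095, 743 and 689, and its share rose 3.87-fold (log2 change 1.95 ± 0.23, edgeR adjusted p = 3.77e-09). ZNF568, a KRAB zinc finger gene, had no read at day 0 and 52, 67 and 45 at day 45. Its share was at least 9.12-fold and its RPM at least 56.3-fold higher, taking 3 reads over the day 0 libraries as the limit that a count of 0 allows.

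Others act at membranes or in the turnover of proteins. FBXL17, the substrate-binding subunit of an SCF ubiquitin ligase, had 1, 4 and 5 reads at day 0 and 302, 243 and 215 at day 45. Its share went from 2.03 ± 1.19 to 26.3 ± 1.94 (SD, n = 3), 12.7-fold (log2 change 3.65 ± 0.37, edgeR adjusted p = 1.2e-11). ATRNL1, a membrane protein related to attractin, had 15, 15 and 18 reads against 749, 424 and 543, and a 5.96-fold share. Its circRNA with the most reads held 70.8% of the ATRNL1 reads at day 0 and 33.0% at day 45, while the circle of exons 2 to 8 printed above had 0 reads in each day 0 library and 148, 82 and 132 at day 45, at least a 20.1-fold higher share. ATRNL1 was not among the genes that passed the test of circRNA use given below.

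VPS13C, a lipid transfer protein of late endosomes and other organelles, had 5, 3 and 5 reads against 231, 196 and 118 (share log2 change 2.79 ± 0.38, edgeR adjusted p = 7.47e-08). MAN1A2, a mannosidase of the Golgi, was abundant on both days, with 168, 147 and 88 reads against 2328, 1838 and 2188, and its share rose 2.63-fold. ATP9A, a phospholipid flippase, had 0, 1 and 1 reads against 105, 69 and 74, a share ratio of 20.7 (95% counting interval 5.67 to 172). SLCO5A1, of the organic anion transporter family, had 1, 0 and 1 reads against 242, 64 and 67, a ratio of 31.1 (95% counting interval 8.55 to 258), with most of its reads in day 45 replicate 1. Intervals and limits from counts of 0 cover counting error only.

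DNAI4, an intermediate chain of axonemal dynein, had 2, 1 and 1 reads against 87, 148 and 114, a 14.6-fold share (edgeR adjusted p = 1e-07). STK39, a kinase that regulates chloride cotransporters, had 24, 24 and 23 reads against 533, 573 and 371, a 3.47-fold share (edgeR adjusted p = 3.02e-07). For each of the 12 genes described so far the shares of the days did not overlap. These genes were picked by their adjusted p on the same shares, so this is no separate support. Of all 4933 host genes tested, 1174 had every day 45 share above every day 0 share.

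SMARCA5, a chromatin remodelling ATPase, shows what the general rise looked like in an abundant gene. It had 214, 230 and 180 reads at day 0 and 1595, 1291 and 1227 at day 45, or shares of 132 ± 27.6 and 143 ± 4.60 (SD, n = 3). On sequenced reads it rose 6.78-fold (log2 change 2.80 ± 0.37, edgeR adjusted p = 1.21e-12), while on share the log2 change was 0.12 ± 0.20 (adjusted p = 0.735). Similar values on share were found for the kinase HIPK3 (-0.17 ± 0.22), the ubiquitin-associated UBAP2 (-0.17 ± 0.22) and the apoptosis inhibitor BIRC6 (0.33 ± 0.25), none past the threshold. The readthrough gene MSANTD3-TMEFF1, whose reads may belong to either of its partner genes, had 54.2 ± 7.21 against 82.0 ± 2.21 (SD, n = 3, edgeR adjusted p = 0.0614). The HIPK3 circRNA had a log2 change of -0.16 ± 0.25 on share and of 0.98 with TMM scaling (edgeR adjusted p = 0.0122).

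Genes known for roles in circRNA formation could be followed only through their own circRNAs. QKI, an RNA-binding protein that promotes circularisation, had 6, 6 and 7 reads against 112, 51 and 69. Its RPM rose (log2 change 3.69 ± 0.48, edgeR adjusted p = 4.51e-13), and its share was not called (log2 change 1.00 ± 0.40, adjusted p = 0.0955). ADAR had 0 reads at day 0 and 4, 1 and 1 at day 45, DHX9 had 0, 0 and 1 against 6, 2 and 4, and MBNL2 had 0 against 1 in each library. No difference in share was detectable at these counts.

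FIRRE, a long non-coding RNA gene on the X chromosome that takes part in the spatial organisation of chromatin, was the most abundant host gene at day 0 and lost share. It had 471, 591 and 310 reads at day 0 and 19, 206 and 197 at day 45, or shares of 314, 391 and 173 against 1.74, 22.9 and 22.1. The days did not overlap, and day 45 replicate 1 stood below the other day 45 libraries on share. The log2 change was -4.24 ± 0.42 on share (edgeR adjusted p = 1.05e-11) and -1.75 ± 0.37 on sequenced reads (adjusted p = 9.26e-06), from 3.38 ± 1.03 to 1.00 ± 0.722 RPM (SD, n = 3). The circles of exons 5 to 10 and 5 to 9 printed above had 380, 457 and 247 against 18, 173 and 171 reads and 54, 61 and 33 against 1, 19 and 17. Leaving out any 1 library kept the gene's change on share between -4.64 and -3.70.

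KCNN2, a calcium-activated potassium channel, had the smallest adjusted p among the genes that lost share. Its single circRNA, of exon 8, had 42, 26 and 59 reads at day 0 and 9, 6 and 13 at day 45 (share log2 change -4.72 ± 0.38, edgeR adjusted p = 1.74e-14). It was also lower on sequenced reads (-2.13 ± 0.50, adjusted p = 8.88e-05). ITPR2, a calcium release channel of the endoplasmic reticulum, had 20, 26 and 9 reads against 1, 5 and 3 and was lower on both scales (share -5.13 ± 0.54, sequenced reads -2.54 ± 0.68).

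The other 9 of the 12 genes with the smallest adjusted p for a lower share had pooled folds between 0.503 (UGP2) and 1.02 (SKIL) on sequenced reads, and none passed on that scale. They comprised the metabolic enzymes AASS, of lysine breakdown, with 35, 36 and 53 reads against 24, 22 and 21, and UGP2, which makes UDP-glucose, with 24, 22 and 46 against 24, 12 and 9. SPECC1, a coiled-coil protein, had 97, 121 and 93 against 74, 41 and 86 (share log2 change -3.22 ± 0.30, edgeR adjusted p = 2.53e-12, sequenced reads -0.57 ± 0.38, adjusted p = 0.174). Among regulators of small GTPases, DOCK1, which activates Rac, had 68, 67 and 60 against 42, 68 and 55, and RAPGEF5, which activates Rap, had 29, 38 and 30 against 27, 28 and 20.

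The protein kinase PRKD3 had 42, 35 and 33 reads against 14, 28 and 22. The metalloprotease ADAMTS19 had 45, 58 and 31 against 11, 40 and 39, and SKIL, a repressor of SMAD signalling, had 60, 45 and 40 against 33, 53 and 58. FAM169A had 72, 51 and 159 against 52, 85 and 67. On share, these 9 genes changed by between -3.60 ± 0.35 (UGP2) and -2.58 ± 0.29 (SKIL) on the log2 scale.

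A milder loss of share was seen in some abundant genes, of which XPO1 and CAMSAP1 still rose on sequenced reads. XPO1, the main nuclear export receptor, had 115, 132 and 82 reads against 555, 329 and 329 (sequenced reads 1.98 ± 0.37, share -0.75 ± 0.23, edgeR adjusted p = 0.0197). CAMSAP1, which binds microtubule minus ends, had 89, 62 and 135 against 328, 367 and 284 (share -0.78 ± 0.22, adjusted p = 0.0116). With 1 of the 6 libraries left out at a time, the share call was lost in 4 fits for XPO1 and in 1 for CAMSAP1. Changes lay between -0.98 and -0.55 for both. FAT1, an atypical cadherin, had 88, 132 and 114 reads against 113, 140 and 262 (share -1.93 ± 0.30, adjusted p = 1.83e-06), and PALS2, a scaffold of cell polarity, had 114, 109 and 90 against 175, 155 and 185 (share -1.87 ± 0.23, adjusted p = 3.9e-09), and neither passed on sequenced reads.

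**Figure D2:**
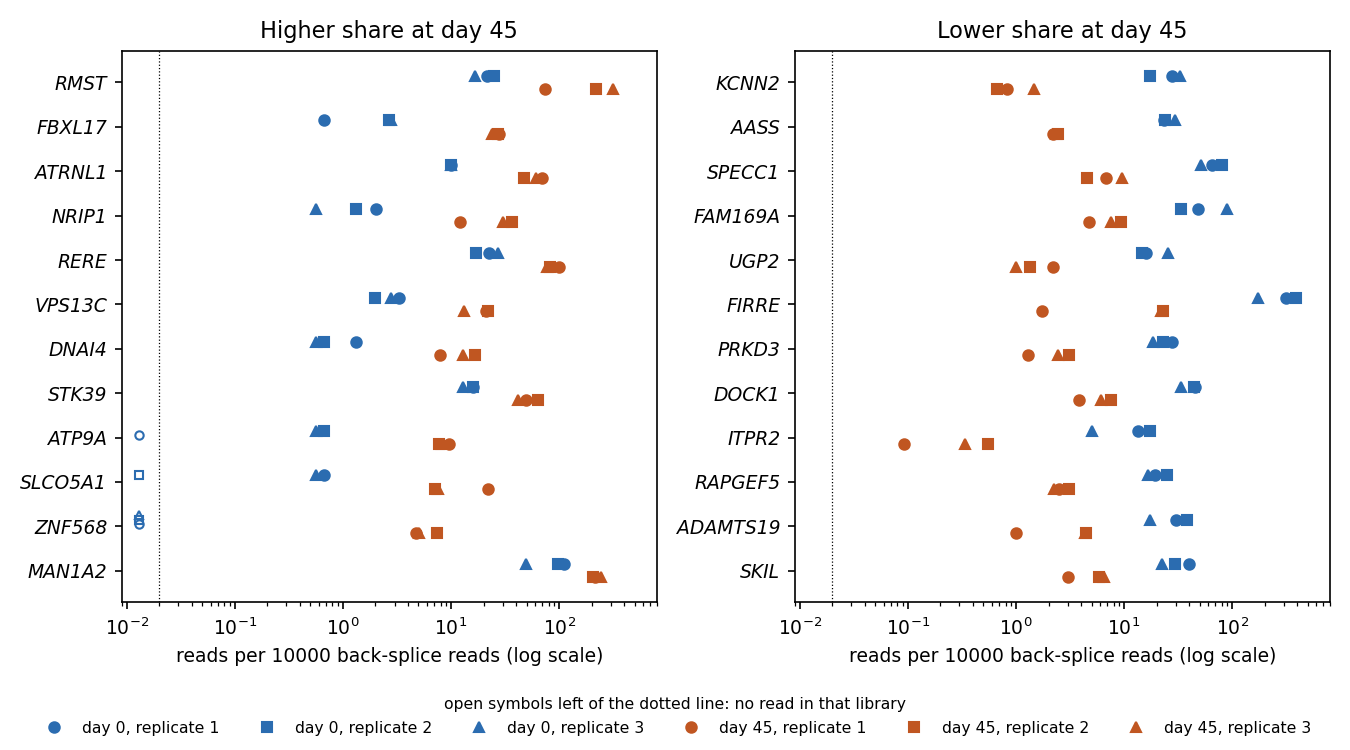
Share of the 12 host genes with the smallest adjusted p for a higher share and the 12 for a lower share in each of the 6 libraries, in reads per 10000 back-splice reads on a log axis, with open symbols for a library with no read. In each of the 24 genes, which were picked by tests on these same shares, the day 0 and day 45 libraries lie apart. FIRRE is lowest in day 45 replicate 1.

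Against the direction of the general rise, 18 genes were lower on sequenced reads. Apart from KCNN2, ITPR2, FIRRE and USP44 they were chosen after their values were seen. TAF4B, a TFIID subunit of germ cells, had 9, 14 and 4 reads at day 0 and 0, 0 and 1 at day 45, an RPM ratio of 0.0381 (95% counting interval 0.000931 to 0.231). DMC1, the meiotic recombinase, had 9, 16 and 17 against 6, 3 and 5 (sequenced reads -1.49 ± 0.68, edgeR adjusted p = 0.0458). POLR3G, a subunit of RNA polymerase III that ES cells express, had 14, 29 and 13 against 7, 2 and 4 (-1.99 ± 0.68, adjusted p = 0.00752), and SINHCAF, a subunit of the SIN3-HDAC complex, had 14, 10 and 7 against 1, 2 and 1 (-2.82 ± 0.88, adjusted p = 0.0031).

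TERF1, which binds telomere repeats, had 8, 5 and 5 reads against 0, 1 and 0, and JADE1, of the HBO1 acetyltransferase complex, had 1, 6 and 11 against 1, 0 and 0. Each had an RPM ratio of 0.0572 (95% counting interval 0.00137 to 0.362). GRHL2, a transcription factor of epithelia, had 14, 19 and 20 against 0, 4 and 0 (-3.58 ± 0.81, edgeR adjusted p = 4.23e-05), and the integrin ITGB5 had 5, 5 and 10 against 0, 4 and 0. FKBP5, a cochaperone of steroid receptors, had 0, 10 and 8 reads against none and was at least 5.83-fold lower. LPAR3, a receptor for lysophosphatidic acid, had 11, 7 and 24 against 3, 2 and 0, and the sterol-binding OSBPL10 had 15, 14 and 15 against 1, 6 and 0. TNFRSF11A, SNHG12 and MATR3 completed the set, with 2, 3 and 8 reads at day 45, and reads of MATR3 may belong to a gene that overlaps it. From 12 to 19 genes were lower when a library was left out.

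Genes were also grouped by function with 23 lists. These lists were made with earlier results of these data known, so their percentages are a description and not a test of the functions. Against a background of 6.14% higher and 5.17% lower on share, DNA replication and repair had 15 lower (21.1%) and 2 higher of 71 tested genes, with a median log2 change of -0.80 against 0.40 for all genes. With genes that had no read on 1 day set at their bound, the medians were -0.96 and -0.26. The summed share of the list was 260, 274 and 267 at day 0 and 161, 172 and 166 at day 45. The lower members included DNA2, a nuclease-helicase (38, 34 and 60 reads against 88, 66 and 60, share log2 change -1.88 ± 0.27, edgeR adjusted p = 3.02e-07), and FANCL, the ubiquitin ligase of the Fanconi anaemia pathway (27, 35 and 42 against 118, 126 and 121, -0.75 ± 0.25, adjusted p = 0.039). FANCL passed in only some of the fits with a library left out, with changes between -0.86 and -0.65. Between 10 and 14 members were lower when a library was left out, and 8 with TMM scaling.

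Further members of this list are named after their values were seen. POLA1, the catalytic subunit of the polymerase that primes replication, had 6, 10 and 15 reads against 11, 13 and 13 (share -2.29 ± 0.47, edgeR adjusted p = 0.000278). BARD1 and BRIP1, partners of BRCA1, had 22, 34 and 31 against 67, 78 and 71 and 9, 15 and 12 against 21, 23 and 17, and PRKDC, the kinase of end joining, had 14, 14 and 15 against 35, 31 and 26. RAD18, RAD54B, MCM10, SMC3, SMC6, PMS1, RFC1 and MCM3 were among the other lower members. The higher members were the cohesin loader NIPBL (2, 3 and 3 against 51, 47 and 51) and REV3L, the catalytic subunit of polymerase zeta (1, 1 and 0 against 31, 28 and 25).

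Mitosis and kinetochore genes had 10 lower (19.2%) and 0 higher of 52 tested, with a median of -0.92 (-1.10 with bounds). The summed share was 146, 156 and 130 at day 0 and 83.3, 81.4 and 75.6 at day 45. Of the members the naming rule gave, CDK13 was lower (39, 52 and 31 against 192, 124 and 99, share -0.85 ± 0.26, edgeR adjusted p = 0.019), a kinase known for transcription rather than mitosis, and its call did not hold for every library left out (-1.09 to -0.60). The others were named after their values were seen. SKA3, a kinetochore protein, had 29, 31 and 29 reads against 27, 22 and 26 (share -2.83 ± 0.33, adjusted p = 1.28e-09). The mitotic kinase MASTL had 15, 21 and 8 against 15, 21 and 15, the spindle motor KIF11 had 6, 4 and 10 against 8, 11 and 5, and the checkpoint kinase BUB1 had 5, 3 and 1 against 2, 2 and 0. DIAPH3, KIF20B, KIF4A, NCAPG2 and PRC1 were lower as well. Without day 0 replicate 1 or 2 the number of lower members was 4 or 6, and with another library left out 8 to 10. TMM scaling gave 7 lower and 1 higher with a median of -0.45 (0.86 for all genes), and genes with at least 50 counts 7 lower and 0 higher of 29 with a median of -0.18 (0.33 for all such genes).

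Centrosome and cilium genes had 12 higher (18.2%) and 3 lower (4.55%) of 66 tested, with a median of 0.54 (0.36 with bounds). BBS9, of the BBSome that carries cargo into cilia, had 9, 16 and 21 reads against 168, 155 and 172 (share 0.86 ± 0.28, edgeR adjusted p = 0.0363). This call was lost in 4 of the 6 fits with a library left out (changes of 0.63 to 1.06). The other members are named after their values were seen. CEP112 had 1, 3 and 0 against 63, 55 and 73, and ALMS1, of the centrosome, had 8, 3 and 1 against 73, 54 and 74. DNAH7 and DRC1, of the motile axoneme, had no read at day 0 and 15, 33 and 22 and 14, 29 and 19 at day 45, at least 3.89-fold and 3.45-fold higher shares. DYNC2LI1 and IFT81 of intraflagellar transport, NPHP4 and TCTN1 of the transition zone, LCA5 and CEP85L were among the other higher members. The lower members were CNTLN (19, 34 and 10 against 41, 25 and 23), CDK5RAP2 (8, 7 and 6 against 9, 13 and 5) and SPAG16. The summed share of the list overlapped between the days, at 195, 230 and 136 at day 0 and 199.9, 211 and 216 at day 45. Only 5, 4 and 5 members were higher without day 0 replicates 1, 2 and 3.

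Genes of membrane traffic, Golgi and endocytosis had 14 higher (15.9%) and 2 lower (2.27%) of 88 tested, with a median of 0.57 (0.46 with bounds). The summed share was 236, 227 and 252 at day 0 and 429, 357 and 334 at day 45. SUCO, a membrane protein of the endoplasmic reticulum, had 15, 13 and 9 reads against 646, 239 and 185 (share 2.20 ± 0.35, edgeR adjusted p = 3.87e-06), and without day 45 replicate 1 its change was 1.61. EXOC6B of the exocyst (35, 43 and 31 against 515, 319 and 301) and the clathrin adaptor PICALM (23, 16 and 40 against 421, 241 and 211) were higher, with changes of 0.59 to 0.94 and 0.63 to 1.20 when a library was left out, not past the threshold in each. RUFY2, SNX14, COG7, DNAJC6, CUX1, RABGAP1, SYNJ1, ATP9B and STXBP5, named after their values were seen like VPS13A and EXOC2 among the lower, completed the members besides VPS13C and ATP9A. STXBP5, which binds syntaxin, had 1, 1 and 1 reads against 119, 90 and 29. From 10 to 16 members were higher when a library was left out, 21 were higher and 3 lower of 78 in genes with at least 50 counts (12.5% and 8.61% of all 2787 such genes), and 22 were higher with TMM scaling or DESeq2 size factors.

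Kinases, phosphatases and phosphodiesterases had 10 higher (12.7%) and 2 lower (2.53%) of 79 tested, with a median of 0.34 (0.02 with bounds). ACVR2A, a receptor for activin, had 10, 8 and 22 reads against 309, 167 and 186 (share 1.46 ± 0.31, edgeR adjusted p = 0.000499). Named after their values were seen, 4 phosphodiesterases that break down cyclic nucleotides were among the higher members. PDE4B had no read at day 0 and 34, 49 and 72 at day 45, at least an 8.62-fold higher share, PDE1C had 10, 38 and 19 and PDE10A 32, 7 and 8 against none, and PDE8A had 37, 43 and 30 against 1, 0 and 4. PTPRM, ERBB4, PPP3CC and FER were higher as well, and MAP3K4 and VRK1 lower. Without day 0 replicate 2, 6 members were higher, and with another library left out 7 to 10.

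Among neuronal genes 5 were higher (17.2%) and 1 was lower (3.45%) of 29 tested, with a median of 2.31 (0.83 with bounds). On sequenced reads 23 (79.3%) were higher, against 63.4% of all host genes. Other lists had larger percentages on that scale, among them centrosome and cilium (86.4%), ubiquitin ligases and deubiquitinases (83.2%) and membrane traffic (83.0%). Besides RMST, the rule named RIMS1 and RIMS2, scaffold proteins of the presynaptic active zone that moved in opposite directions on share. RIMS1 had 0, 2 and 0 reads against 43, 44 and 116, a share ratio of 16.9 (95% counting interval 4.63 to 141). RIMS2 had 24, 21 and 17 against 25, 40 and 88 and rose on sequenced reads (1.28 ± 0.42, edgeR adjusted p = 0.00555) by less than the general rise (share -1.25 ± 0.37, adjusted p = 0.0185), although the share call did not hold for every library left out (-1.96 to -0.86). RELN, the secreted guidance protein reelin, had no read at day 0 and 28, 38 and 37 at day 45, and DCLK2, a microtubule-binding kinase, 37, 27 and 22, at least 5.73-fold and 4.78-fold higher shares. ANK3, the ankyrin of the axon initial segment, had 0, 1 and 1 against 80, 21 and 11. RELN, DCLK2 and ANK3 were named after their values were seen.

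Of 16 tested genes of the eye list, 2 were higher (12.5%) and 0 lower on share, and 11 (68.8%) were higher on sequenced reads, against 63.4% of all host genes. The adhesion protein TENM3 had 2, 2 and 4 reads against 41, 52 and 48, and CDH23, a cadherin of hair cells and photoreceptors, none against 12, 8 and 14, at least a 1.89-fold higher share. With 1 of the 6 libraries left out at a time, the TENM3 call was lost in 5 fits and the CDH23 call in 4. In the fit of the 6 libraries alone, 0 genes of this list were higher. SOX6, with no read at day 0 and 9, 6 and 7 at day 45, and MERTK, the phagocytosis receptor of the pigment epithelium, with 1, 0 and 2 against 2, 10 and 5, were not called on share. Axon guidance and neural adhesion genes had 2 higher and 1 lower of 42 on share and 27 (64.3%) higher on sequenced reads, and their summed share went from 8.67, 3.31 and 6.69 to 26.6, 25.1 and 27.6. EPHA3, an ephrin receptor, had no read at day 0 and 37, 18 and 18 at day 45, at least a 4.06-fold higher share.

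Pluripotency and germline genes had 3 lower and 0 higher of the 5 tested, out of 14 with any read and 38 listed. These were UGP2, the metabolic enzyme already described and also in the metabolism list, the deubiquitinase USP44, and the epithelial adhesion protein EPCAM. USP44 had 10, 2 and 7 reads against 0, 3 and 0, a share ratio of 0.0263 (95% counting interval 0.00499 to 0.0895). EPCAM had 1, 2 and 12 against 2, 4 and 2 and did not pass without day 0 replicate 3 (log2 change -1.77, edgeR adjusted p = 0.486). JARID2, a partner of Polycomb, had 5, 6 and 1 against 7, 10 and 8 and was not called.

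Ion channels and transmitter receptors had 3 lower (8.82%), among them KCNN2 and ITPR2, and 0 higher of 34 on share. On sequenced reads 23 (67.6%) were higher, close to the 63.4% of all host genes. Chromatin genes were close to the background, with 5 higher and 2 lower of 77. ASXL1 and KMT2C, of Polycomb deubiquitination and histone methylation, were among the higher, with 19, 19 and 28 reads against 493, 327 and 289 and 3, 3 and 6 against 168, 92 and 94. The methyltransferase NSD1 was lower, with 29, 24 and 25 against 51, 45 and 50. KMT2C and NSD1 were named after their values were seen.

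Ubiquitin ligases and deubiquitinases had 9 higher and 9 lower of 95, and zinc finger transcription factors 5 and 5 of 48. RNA-binding and splicing genes had 3 higher and 5 lower of 73, with SLTM (66, 62 and 43 against 168, 108 and 172) and RBM33 (41, 55 and 43 against 177, 122 and 105) among the lower. Cytoskeletal genes had 5 higher and 4 lower of 70, developmental signalling genes 3 and 1 of 56, nuclear pore and transport genes 3 and 3 of 46, and metabolic genes 2 and 5 of 50. Mesoderm genes had 0 higher and 1 lower of 5, and mesenchyme genes 0 of either of 6. The long non-coding RNA list had 1 higher, RMST, and 2 lower, FIRRE and SNHG14 (22, 14 and 21 against 10, 9 and 13), of 4 tested, and reads of SNHG14 may belong to genes that overlap it.

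**Figure D3:**
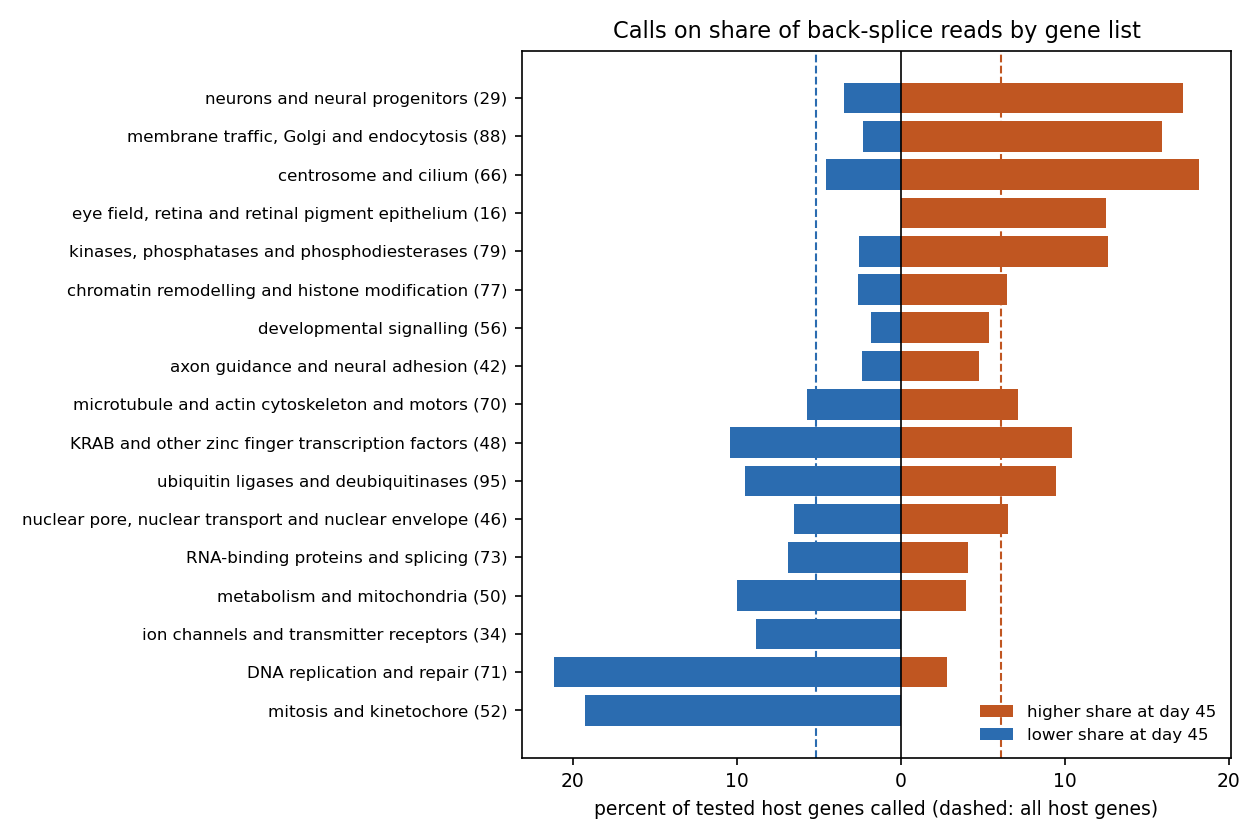
Percentage of tested host genes with a higher or a lower share at day 45 in each function list with at least 15 tested genes, with dashed lines at the percentages over all genes (6.14% and 5.17%). The lower bars are longest for DNA replication and repair (21.1%) and mitosis (19.2%), and the higher bars for centrosome and cilium (18.2%), neurons (17.2%) and membrane traffic (15.9%). The lists were made with earlier results of these data known.

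Of the 57 host genes that the naming rule gave and that passed on share, 37 passed whichever library was left out, among them all 24 with the smallest adjusted p. Those 24 had been picked by the full fit, and these fits reuse its other libraries, so their passing is no separate support. The other 20 were XPO1, CAMSAP1, EPCAM, TENM3, CDH23, RIMS2, RYR2, PLXNC1, FANCL, CDK13, BBS9, EXOC6B, PICALM, FBXW7, RBM23, ZNF292, ZBTB44, TNPO1, PCCA and ATP5F1C.

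At the level of single circRNAs, 5114 of 12498 (40.9%) were higher on sequenced reads and 32 (0.256%) lower. On share, 206 (1.65%) were higher, from 169 host genes, and 253 (2.02%) lower, from 198 host genes. TMM scaling gave 1090 higher and 94 lower (92.1% of the calls higher against 44.9%), and DESeq2 size factors 321 and 189 (62.9% higher). Leaving out day 0 replicates 1 and 2 gave 123 and 136 higher circRNAs, and leaving out any other library 144 to 188.

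The SUCO circle of exons 3 to 9 had 1, 0 and 0 reads at day 0 and 541, 153 and 109 at day 45. Its share ratio was 134, with a 95% counting interval from 24.0 to 5297. Its largest count was in day 45 replicate 1, as it was for a ZFPM2 circRNA of exons 2 to 3, with no read at day 0 and 190, 6 and 15 at day 45. The ZFPM2 call was lost without day 45 replicate 1 and among circRNAs with at least 50 counts. On the other side, a circRNA on the X chromosome (chrX:96603117-96684744, + strand) whose exon ends match several genes had 14, 18 and 16 reads at day 0 and none at day 45, at least a 95.9-fold lower share.

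Whether a gene used the same circRNAs on both days was tested within 2396 host genes with 2 or more tested circRNAs, and 5 (0.209%) passed (edgeR's diffSpliceDGE, Simes p per gene with Benjamini-Hochberg adjustment). In simulated data with a circRNA changed 8-fold in each of 100 genes, the test found 12% of these genes. Where the changed circRNA was abundant it found 24%, so a gene that did not pass may still have changed. Percentages below are of the reads on a gene's tested circRNAs, pooled over the libraries of a day. The junctions of 3 of the genes that passed are shown because in each a shared exon end is joined to different partners. Both RAB6A circles match exons 4 to 6, each of a different named transcript, so their lines give positions only.
DOCK1 exons 2 to 27, chr10:128768966-128926028, + strand: gattctgAACTCATTCTTTTTATaactatg
DOCK1 exons 2 to 10, chr10:128768966-128798571, + strand: cttttggAGTGGCTGCTTTTTATaactatg
MAN1A2 exons 2 to 3, chr1:117944808-117948267, + strand: cccctaaCATATTTGGGAAGAGGaagaacg
MAN1A2 exons 2 to 5, chr1:117944808-117963271, + strand: ctatcagGAGAGGAGGGAAGAGGaagaacg
RAB6A, chr11:73418465-73429935, - strand: tacaatgTAAAGCAGATCAGGCTtcagctg
RAB6A, chr11:73418465-73429763, - strand: tacaatgTAAAGCAGGTACGATTgcaatta

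In DOCK1 (adjusted p = 0.000378, edgeR), the circle of exons 2 to 27 had 31, 34 and 21 reads at day 0 and 0, 2 and 3 at day 45, or 53.1% and 4.07% of these reads. That of exons 2 to 10 had 4, 3 and 2 against 11, 16 and 13, or 5.56% and 32.5%. In MAN1A2 (adjusted p = 0.0262), exons 2 to 3 made up 27.5% of the reads at day 0 and 9.03% at day 45, and exons 2 to 5 made up 42.7% and 53.3%. In RAB6A, a GTPase of the Golgi that is known to be spliced with either of a pair of alternative exons (adjusted p = 0.0199), the circles of the first and second junction printed above had 11, 3 and 10 against 17, 14 and 6 reads and 3, 10 and 5 against 149, 109 and 109.

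In TDRD3, a Tudor domain protein (adjusted p = 0.0286, edgeR), exons 2 to 4 made up 54.3% of 35 reads at day 0 and 7.96% of 402 at day 45, and exons 2 to 5 made up 34.3% and 70.4%. In SUCO (adjusted p = 0.0293), the circle of exons 3 to 9 made up 3.13% of 32 reads and 75.6% of 1062, and another circle (chr1:172525009-172526934), with 5, 0 and 6 reads against 10, 9 and 6, made up 34.4% and 2.35%. Leaving out a library left between 0 and 3 genes. DOCK1 passed in each of these fits except that without day 45 replicate 2 (adjusted p = 0.0518), the fit in which no gene passed.

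**Figure D4:**
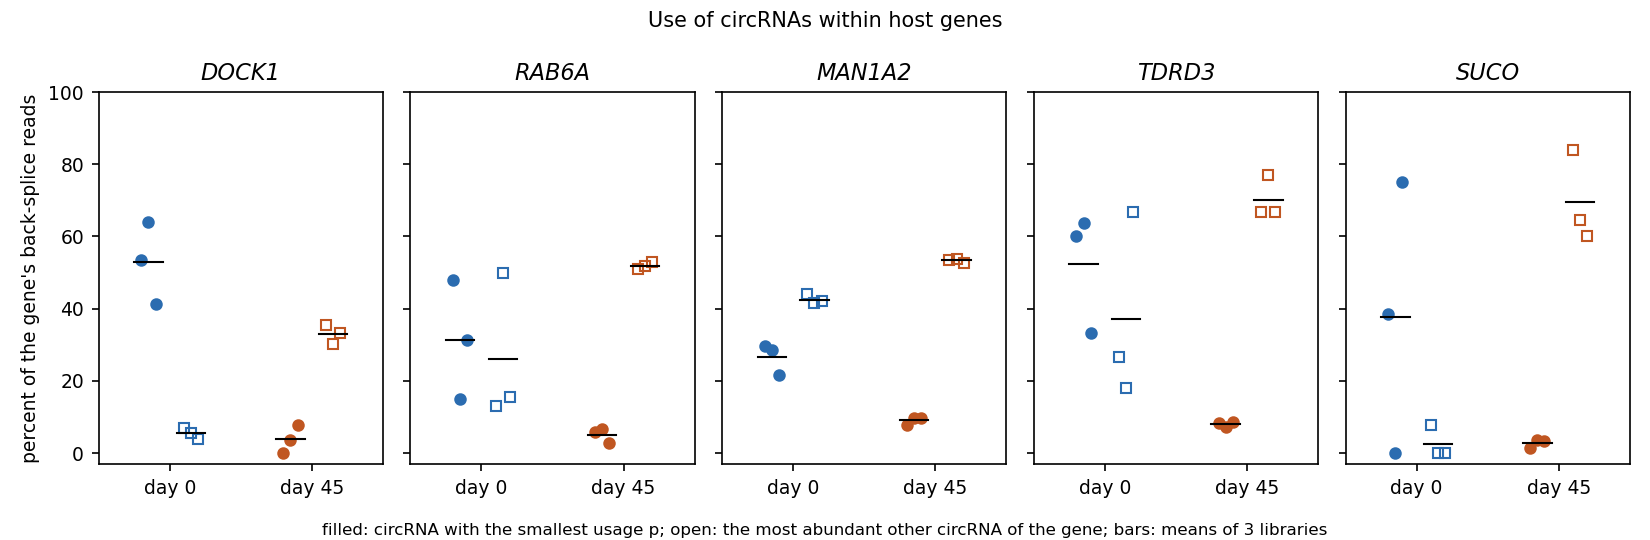
Percentage of the reads on tested circRNAs of DOCK1, RAB6A, MAN1A2, TDRD3 and SUCO that came from the circRNA with the smallest p (filled) and from the most abundant other circRNA (open), in each of the 6 libraries, with bars at the means. Pooled over libraries the filled circRNA is lower at day 45 in all 5 genes (53.1% to 4.07% in DOCK1), and only in SUCO, with no such read in day 0 replicate 2, do the libraries of the days overlap.

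The structure of the circles that gained and lost share is given as a description. Of circRNAs with known exons, 34 of 228 (14.9%) with a lower share were single exons, against 16 of 181 (8.84%) with a higher share and 4.92% of those not called. Among circRNAs with at least 10 reads at day 0 the percentages were 14.1%, 6.25% and 8.59%. Over all back-splice reads, single-exon circles made up 10.2%, 10.5% and 10.8% at day 0 and 5.98%, 7.63% and 8.62% at day 45 (two-sided exact permutation test, p = 0.1, the smallest possible). Median lengths of the introns before and after the circle were 19354 and 16876 bases for a higher share, 9302 and 11390 for a lower share and 7400 and 6296 for circRNAs not called. A circle starting at exon 2 was found in 41.4%, 49.1% and 27.8%. Among circRNAs with at least 10 reads at day 0, the intron medians were 17536 and 19114, 10599 and 11710, and 13122 and 11017 bases. In this set 40.6%, 52.2% and 45.2% started at exon 2. Contrasts with circRNAs not called were smaller here, and the intron before the circle was shorter for a lower share than for circRNAs not called. Between a higher and a lower share, the contrasts in the intron after the circle and in starts at exon 2 were not smaller.

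The concentration of reads on few circRNAs was compared by exact tests that cannot go below p = 0.1. The 10 most abundant held 7.84% ± 1.47 at day 0 and 8.06% ± 1.06 at day 45 (SD, n = 3, exact permutation p = 1), and the 100 most abundant held 23.0% and 21.2% (exact permutation p = 0.3). Counting circRNAs with at least 2 reads in a library, the 100 most abundant held 30.2%, 32.2% and 26.5% at day 0 and 21.9%, 23.4% and 24.0% at day 45, with all day 0 libraries above those of day 45 (exact permutation p = 0.1). This cut was made at unequal depth and takes a larger part of the reads at day 0, where the smallest library kept 11659 of 14992. The last comparison therefore cannot separate concentration from depth. At an equal depth of 14992 back-splice reads, the expected number of distinct circRNAs was 5857 ± 238 at day 0 and 6462 ± 77.1 at day 45 (SD, n = 3, exact permutation p = 0.1), and all day 45 libraries were above those of day 0. Circles from non-coding genes made up 3.70% and 2.61% of reads (exact permutation p = 0.4).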

How the data were processed

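RNA of triplicate cultures was depleted of ribosomal RNA and sequenced as paired ends by the authors, who screened the reads of each library for back-splice junctions with PTESFinder, against GENCODE transcripts on GRCh37/hg19 and requiring 8 bases on each side of a junction. The deposited values are raw counts of back-splice reads per circRNA and library, with libraries not pooled. No columns were left unused among the per-library values (0).

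Counts of the 55371 circRNAs were read for 15 libraries. Host genes were taken from the transcript that the table names (48401 circRNAs) or from matching exon ends (6744), and 187 circRNAs with several matches and 39 with none had no host gene (0.443% of the reads of the 6 libraries compared). The deposited table holds back-splice reads only, so sequenced reads per library, the denominator of RPM, were the totals given with the study. For 1 day 90 library, which has no part in the contrast but enters the fits, that total could be read in more than 1 way, and a mean was used. A circRNA's reads and a read of an overlapping gene on the same exons cannot be told apart.

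circRNAs, and host genes as sums of their circRNAs, with at least 10 counts over the 15 libraries were fitted in edgeR 4.0.16 (R 4.3.3) with the quasi-likelihood test, all 5 groups sharing 1 estimate of the spread. The library size was either the sequenced reads or the total back-splice reads of the library, without further scaling. Day 45 untreated minus day 0 was called at a Benjamini-Hochberg adjusted p under 0.05. Use of circRNAs within a gene was tested with diffSpliceDGE. Values of whole libraries were compared by two-sided exact permutation tests (scipy 1.17.1). A count of 0 was bounded at 3 counts over the 3 libraries of a day, which is 0.624 reads per 10000 at day 0 and 0.104 at day 45, and ratios with 1 to 3 counts on a side have exact 95% intervals. The fits were tested on simulated data. Junction and splice site bases were read from the genome with pysam 0.24.0, and figures were drawn with matplotlib 3.10.9.

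Members and gene lists were chosen with earlier results of these data known. The text names the 12 higher and 12 lower host genes with the smallest adjusted p on share, the 10 with the highest mean share on each day, the 4 of each list with the most counts, the 8 higher and 8 lower circRNAs with the smallest adjusted p, the 5 most abundant circRNAs on each day, the 8 genes with the smallest p for use of circRNAs, and 10 genes the study was about. Of these 10, MBNL1 and MBNL3 were not analysed here. Any other gene is said to be named after its values were seen, and a few list members counted in the text are not reported here by name. Same-numbered libraries of the days deviated together with correlations of 0.0118, -0.00760 and -0.0373 over 2787 genes, so the numbers were not taken to pair them. Alternatives were other count minimums, TMM or DESeq2 1.42.0 size factors, the DESeq2 Wald test, fits of the 6 libraries alone, a replicate block, totals without the 10 top circRNAs, and each library left out.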

Additional observations from a re-analysis of the deposited data

How the results depend on the processing

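Leaving out 1 library at a time gave 3363 to 4818 circRNAs higher and 20 to 29 lower on sequenced reads, 123 to 188 higher and 176 to 198 lower on share, 2616 to 3052 host genes higher and 12 to 19 lower on sequenced reads, 188 to 296 higher and 179 to 236 lower on share, 0 to 3 genes in the test of use, and an RPM ratio of 5.33 to 6.91. Within replicate number 1 that ratio was 8.19. With no filter on low counts, 3162 circRNAs were higher and 18 lower on sequenced reads, and 125 higher and 168 lower on share, while a minimum of 50 counts gave 3024 and 15 circRNAs and 11 lower host genes on sequenced reads, and 11 genes in the test of use. Fewer features enter with 50 counts and more with no filter. The DESeq2 Wald test gave 16 lower circRNAs and 10 lower host genes on sequenced reads. The 6 libraries alone gave 130 circRNAs higher on share. TMM scaling gave 1090 higher and 94 lower circRNAs and 565 higher and 154 lower host genes on share, DESeq2 size factors gave 321 higher circRNAs, and the share of the HIPK3 circRNA turned from a negative to a positive change under TMM (0.98). Counting circRNAs with at least 2 reads in a library, the day 45 minus day 0 difference in the reads held by the 10 most abundant was -1.30 percentage points in place of 0.218, that of the 100 most abundant was -6.54, and that of distinct circRNAs at equal depth was 2229. That cut falls on libraries of unequal depth, with fewer back-splice reads at day 0. The cause of the differences between settings was not tested. With a replicate block, the calls on share were 190 higher and 216 lower circRNAs and 336 higher and 264 lower host genes, those on sequenced reads 4391 and 23 circRNAs and 2969 and 15 host genes, and 5 genes passed in the test of use, but the numbers did not pair the libraries. Over the named host genes, 1437 of 1564 values on share under an alternative kept their direction and side of the threshold, 77 lost the threshold and 50 gained it, and for the named circRNAs 322 of 330 kept both. A count of 0 over a day allows a share of up to 0.624 reads per 10000 at day 0 and 0.104 at day 45, so depth limits the calls more at day 0.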

Other observations

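Day 45 replicate 1 stood apart from the other untreated day 45 libraries in several genes. In FIRRE and a ZFPM2 circRNA, replicate 1 of the IGF-1 treated day 45 cultures also stood apart on raw reads. The treated cultures took no part in the comparison. FIRRE had 19 reads against 206 and 197 in the untreated libraries, and 14 against 154 and 183 in the treated ones. The ZFPM2 circRNA of exons 2 to 3 had 190 reads against 6 and 15, and 147 against 13 and 6. RMST had 806 reads against 1970 and 2791 in the untreated libraries, and 1610 against 2466 and 2274 in the treated ones. However, treated replicate 1 had 60537 back-splice reads in all against 93156 and 82472, so its RMST count does not show a lower share. DAB1, of the neuronal list, had 18 reads in untreated replicate 1 and none in the other untreated libraries. These genes were chosen after their values were seen, and the difference between replicates was not tested.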
